A study of Mus musculus with 10 samples.

Results

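The genes described here encode proteins that bind RNA and take part in splicing, the removal of introns from pre-mRNA. They were chosen by gene symbol, as the hnRNP, SR (Srsf), snRNP (Snrp), SF3, RBM (Rbm followed by a number or x), CELF, ELAV-like, NOVA and PTB families, with the imprinted gene Snrpn left out. The rule matched 87 of the 12488 probe sets on the array, and these stood for 64 genes. It matched 22 hnRNP probe sets of 16 genes, 17 RBM of 14, 16 SR of 9, 10 SF3 of 8 and 10 snRNP of 8. It also matched 5 CELF probe sets of 3 genes, 4 ELAV-like of 4 and 3 PTB of 2, and no NOVA gene.

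Introns are removed by the spliceosome, which is built from small nuclear ribonucleoproteins (snRNPs). Its U2 snRNP carries the SF3a and SF3b complexes, which help to recognise the branch point of the intron. SR proteins mostly favour, and hnRNP and PTB proteins often repress, the use of nearby exons, so that their balance shapes alternative splicing. The brain is rich in alternative exons, and ELAV-like (Hu) proteins, CELF proteins and the neuronal PTB protein Ptbp2 are known for controlling RNA processing in neurons.

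Whole brains were taken from newborn mice (postnatal day 0), and their RNA was measured on 10 Affymetrix MG-U74Av2 arrays, which give 1 fluorescence intensity for each probe set, a group of short probes against the same transcript. XmO animals carried 39 chromosomes with a single maternal X, and XX_Paf females carried 40 chromosomes; both had 3 arrays and were from the cross written C57BL/6J x C3H/Paf. XpO animals carried 39 chromosomes with a single paternal X, and XX_InX females carried 40 chromosomes; both had 2 arrays and were from the cross written In(X)/C3H x C57BL/6J. All animals were newborn and differed in cross as well as in X chromosomes, and the labels leave unstated whether an array holds a single brain or pooled RNA. Since nothing says that samples came from separate animals, p-values measure only the spread between these samples, which may be technical.

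The label check was Xist, the RNA made by an inactive X chromosome, which ranged from 21.3 to 30.7 in XmO and 40.6 to 49.9 in XpO, against 3300.1 to 4082 in XX_Paf and 1673 to 2671 in XX_InX. Pairs of arrays correlated at r = 0.950 to 0.973 across probe sets (log2 intensity), and probe sets are no independent replicates. A first principal component with 25.6% of the variance ran from -23.6 on XX_Paf 1 to 27.4 on XpO 18, and XX_InX 1 lay at 22.4, XpO 15 at -15.0. XpO 18 and XX_InX 1 stood farthest out on one side of it and XX_Paf 1 on the other. Values without 1 or more of them are given for some calls, medians and counts at an unadjusted p. Counts of higher or lower estimates and of groups without overlap are given with all 10 arrays only. As a measure of background, the brightest of 11 probe sets whose every listed gene lies on the Y chromosome, which these animals lack, read 33.6 to 136.6 on the 10 arrays. The 18 tested probe sets of 12 neuronal marker genes, such as tubulins and synaptic proteins, summed to 117729 to 131027 on every array, as a check of the labelled tissue.

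Most of the splicing genes were well above background in newborn brain. Of the 87 probe sets, 75 were above the brightest Y-linked probe set on all 10 arrays, 9 on some arrays, and 3 on none (Hnrnpdl 161372_f_at, Rbm22 162395_r_at and Snrpb 161335_r_at). 81 probe sets of 63 genes passed the filter on low intensity and were tested, and 6 did not pass. Among the SR proteins, Srsf2 (probe set 94017_s_at) read from 6405 to 8997 over the 10 arrays, Srsf5 from 2231 to 3142 and Srsf11 from 2184 to 3154. Hnrnph1 (4879.7 to 7297), Hnrnpa2b1 (93117_at, 4889 to 7042) and Hnrnpdl (96083_s_at, 4567 to 6570.4), which bind G-rich, purine-containing and AU-rich RNA respectively, were the brightest hnRNP genes. Of the core proteins of the snRNPs, the Sm protein gene Snrpb (160555_r_at) read from 5355 to 11209, Snrpe from 2338 to 3183 and Snrpg from 1705 to 2154. Of the SF3 subunits Sf3a2 (92196_f_at) read from 2680.2 to 4032, Sf3b1 (97808_at) from 1219 to 2133 and Sf3b6 from 1327 to 2036. Probes differ in how well they bind, so these intensities set no order between genes.

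Of the 87 probe sets, 10 have the suffix _f, 7 _r and 3 _s, by which the manufacturer marks probes that can also bind related transcripts or that failed some design rules, and their values are uncertain to that extent. 1 snRNP probe set, Snrp1c-ps2, is named for a pseudogene, and it varied from 179 to 1026 among the arrays. In a linear model fitted with limma on all 8695 tested probe sets, a value was called at a Benjamini-Hochberg adjusted p under 0.05.

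The first question was whether the brains of the 2 crosses differed in these genes. XX_Paf and XX_InX females, which share the XX karyotype, had more members past an unadjusted p of 0.05 than any other of the 6 comparisons made. Of the 81 members tested, 65 had a higher estimate in XX_Paf and 16 a lower one, against 47.3% higher among all probe sets tested. The median log2 fold change of the members was 0.27 (0.17 without XX_InX 1) and that of all probe sets -0.02. No member was called by limma in this comparison, where 0.0805% of all probe sets were. At an unadjusted p under 0.05, 24 members were higher in XX_Paf (29.6%, against 7.4% of all probe sets) and 2 were lower (2.47%, against 6.39%). The arrays of the females did not overlap for 39 members that were higher in XX_Paf (17.6% of all probe sets) and for 8 that were lower (19.5%). RNA came from whole brain, so fewer cells of a type and less RNA per cell cannot be told apart.

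Higher estimates were found in most families. All 15 SR probe sets had higher estimates in XX_Paf (median log2 fold change 0.27, 3 with an unadjusted p under 0.05), as did all 4 CELF (median 0.40) and all 3 PTB probe sets (median 0.46). Among hnRNP probe sets 18 of 21 were higher (median 0.32), 11 of them at an unadjusted p under 0.05. The RBM family had 11 of 15 higher (median 0.09), SF3 subunits 6 of 10 (median 0.14), snRNP proteins 5 of 9 (median 0.16) and ELAV-like proteins 3 of 4 (median 0.05).

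**Figure D1:**
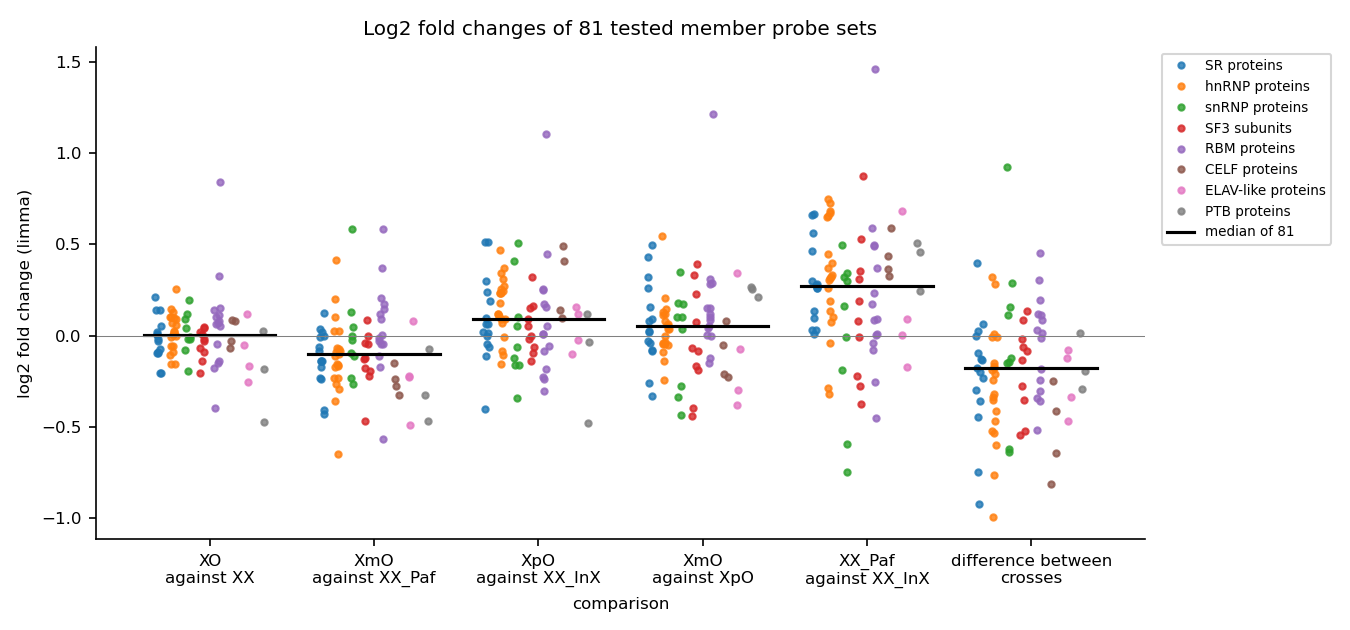
Log2 fold changes of the 81 tested probe sets by family (points) in the 6 comparisons on the horizontal axis, with the median of all 81 as a bar. In XX_Paf against XX_InX 65 of 81 points lie above 0, and in XmO against XX_Paf 60 lie below it.

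XmO against XpO is the same comparison of crosses in animals with a single X, on other arrays, and the parental origin of the X differs with the cross. There 48 of 81 members had a higher estimate in XmO, against 50.1% of all probe sets. The median was 0.05 (0.00036 over all probe sets). No member was called by limma (0.0115% of all probe sets were), and 4 were higher and 2 lower at an unadjusted p under 0.05 (2.36% and 2.47% of all probe sets). 11 members were higher without overlap of the groups (8.59% of all probe sets) and 4 were lower (8.83%). The PTB probe sets were again all higher (3 of 3, median 0.26), while CELF (1 of 4 higher, median -0.13) and ELAV-like (1 of 4, median -0.19) were mostly lower. The SR probe sets had 9 of 15 higher (median 0.02) and hnRNP 12 of 21 (median 0.04). The cross difference in XX animals and in XO animals shares no array: 48 of the 81 members (59.3%) had the same sign in both, 40 higher and 8 lower, against 57.2% of all probe sets. As a description, Pearson's r between these differences was 0.45 and Spearman's rho 0.31 over the 81 members, which share the same arrays, with Rbm39 farthest out. Over all probe sets r was 0.12 and rho 0.18.

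**Figure D2:**
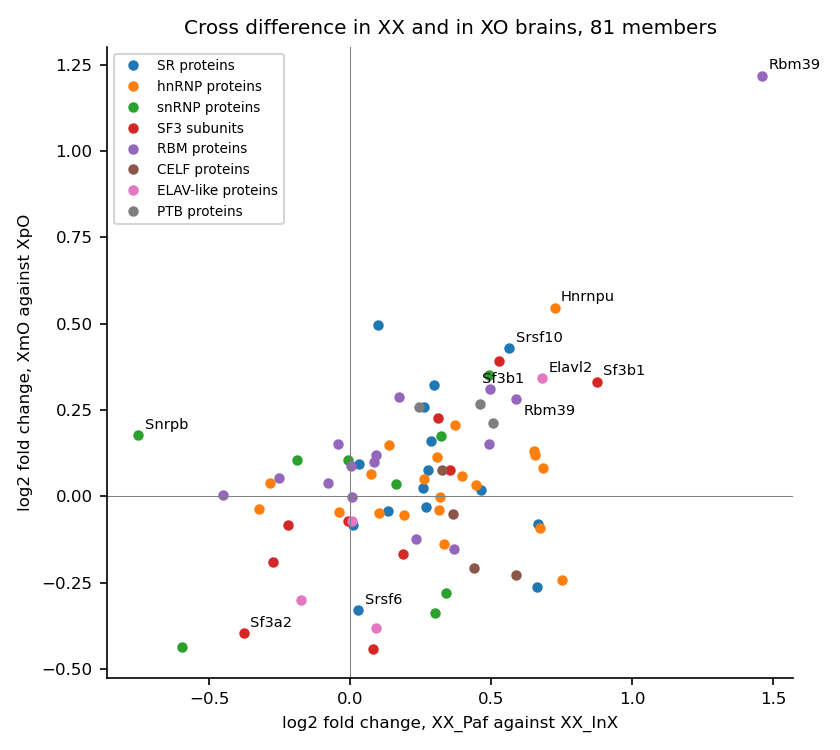
Each of the 81 tested probe sets by its log2 fold change between crosses in XX females (XX_Paf against XX_InX, horizontal axis) and in XO animals (XmO against XpO, vertical axis), coloured by family. Rbm39 (94689_at) stands apart at 1.46 and 1.22, and 40 probe sets lie above 0 on both axes.

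After these values were seen, the 6 arrays of the Paf cross were set against the 4 of the In(X) cross in the same model, with equal weight for XX and XO animals. 1 of the 81 members was called by limma, where 0.104% of all probe sets were, and it was Rbm39. In all 22 members were higher and 3 lower at an unadjusted p under 0.05 (6.59% and 6.15% of all probe sets), but 10 were higher without XpO 18 (4.21% of all probe sets), 13 without XX_InX 1 (4.98%) and 16 without XX_Paf 1 (5.03%). The crosses did not overlap for 6 members that were higher in the Paf cross (1.56% of all probe sets) and for 2 that were lower (1.5%). Rbm39 encodes a serine- and arginine-rich splicing factor related to U2AF, which helps to define the 3′ splice site. The gene lies at chr2:156147239-156180238 (assembly GRCm38.p6). Its probe set 94689_at read 792, 1687 and 1508 (XmO), 987, 1226 and 1089.7 (XX_Paf), 544 and 542 (XpO), and 386 and 411 (XX_InX). Every array of the Paf cross was above every array of the In(X) cross, and XmO 1 was the lowest of the Paf cross. The group means were 1329 ± 474 (XmO), 1101 ± 119.7 (XX_Paf), 543 ± 1.41 (XpO) and 398 ± 17.5 (XX_InX) (SD, n = 3, 3, 2 and 2). Rbm39 was 2.53 times as high in the Paf cross (log2 fold change 1.34, SE 0.18, adjusted p = 0.0103 by limma), with a 95% interval of the log2 fold change from 0.95 to 1.73.

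The difference in Rbm39 between crosses had the same sign in both karyotypes, without a call in either. Between XX_Paf and XX_InX it was 1.46 (SE 0.25, limma adjusted p = 0.0724) and between XmO and XpO 1.22 (SE 0.25, limma adjusted p = 0.329), and the second less the first was -0.24 (SE 0.36, limma adjusted p = 0.932). Within a cross, XO and XX animals differed by 0.20 in the Paf cross and by 0.45 in the In(X) cross, with limma adjusted p of 0.920 and 0.9998. The call in the comparison of crosses was lost without XpO 18 (log2 fold change 1.34, limma adjusted p = 0.0793) and without both XpO 18 and XX_InX 1 (1.32, limma adjusted p = 0.122). Without XmO 1, the lowest array of its group, Rbm39 was called by limma between XX_Paf and XX_InX (adjusted p = 0.00135) and between XmO and XpO (1.55, adjusted p = 0.00285), and without XmO 2 between XX_Paf and XX_InX (adjusted p = 0.0372). Without XpO 15, 9 members were called in the comparison of crosses, with both Rbm39 and both Sf3b1 probe sets and Elavl2 among them, while calls over all 8695 probe sets rose from 9 to 105.

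The second Rbm39 probe set, 93267_at, went the same way by less. It read 1459.8, 1387 and 1412 (XmO), 1319, 1509.9 and 1589 (XX_Paf), 1287 and 1058 (XpO), and 924 and 1032 (XX_InX). The Paf cross was again above the In(X) cross on every array (log2 fold change 0.44, SE 0.10, adjusted p = 0.122). The 2 probe sets of Rbm39 differed from each other in this comparison by 0.90 on the log2 scale, without passing the test over all 1358 pairs of probe sets of the same gene (SE 0.23, limma adjusted p = 0.348).

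RefSeq lists a pair of promoters for Rbm39, which are shown because Rbm39 is the gene that was called, beside that of Sf3b1, which follows it. The lines run 5′ to 3′ on the minus strand of GRCm38.p6, from 250 bases before to 50 after the annotated start. Capitals mark matches, on either strand, to the CCAAT box, searched as CCAAT. They also mark the GC box, searched as GGGCGG, and no marked matches overlap. The TATA box was searched as TATAAA.
Rbm39 first start, chr2:156180189-156180488: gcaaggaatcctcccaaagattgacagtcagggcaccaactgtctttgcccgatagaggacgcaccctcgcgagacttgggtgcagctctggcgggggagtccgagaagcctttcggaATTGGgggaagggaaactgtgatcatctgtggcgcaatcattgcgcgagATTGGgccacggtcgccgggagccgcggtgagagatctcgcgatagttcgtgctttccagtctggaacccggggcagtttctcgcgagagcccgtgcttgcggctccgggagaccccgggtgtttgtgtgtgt
Rbm39 second start, chr2:156179531-156179830: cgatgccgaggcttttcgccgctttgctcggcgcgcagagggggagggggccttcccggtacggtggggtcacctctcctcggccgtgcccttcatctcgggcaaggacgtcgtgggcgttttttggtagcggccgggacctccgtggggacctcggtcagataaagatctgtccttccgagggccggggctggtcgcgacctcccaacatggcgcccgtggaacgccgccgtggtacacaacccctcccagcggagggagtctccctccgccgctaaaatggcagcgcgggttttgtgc
Sf3b1, chr1:55027429-55027728: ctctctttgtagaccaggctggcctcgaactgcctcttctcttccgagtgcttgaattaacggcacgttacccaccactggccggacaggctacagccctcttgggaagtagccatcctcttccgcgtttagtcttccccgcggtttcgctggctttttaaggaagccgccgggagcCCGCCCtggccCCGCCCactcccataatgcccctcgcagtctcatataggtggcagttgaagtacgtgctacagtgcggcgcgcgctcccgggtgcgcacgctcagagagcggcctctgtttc
The first Rbm39 promoter holds the CCAAT box 2 times, both on the opposite strand (read as ATTGG). Sf3b1 holds the GC box 2 times, both on the opposite strand as well (read as CCGCCC). None of these motifs is in the second Rbm39 window, and none of the 3 windows holds the TATA box. They hold 25, 33 and 24 CpG dinucleotides, against a median of 7 over all 32851 promoters of the table and 25 over the 79 promoters of the 55 member genes that matched it. The GC box is in 62.0% of the members' promoters and in 35.7% of all, the CCAAT box in 50.6% and 37.4%, and the TATA box in 11.4% and 13.6%. These are matches of letters only and say nothing of binding.

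Sf3b1, the SF3b subunit that contacts the branch point and is the target of several splicing inhibitors, came next by p-value, without a call. The gene lies at chr1:54985169-55027501 (assembly GRCm38.p6). Its probe set 96777_at read 728, 696 and 746 (XmO), 919.7, 741 and 882 (XX_Paf), 702 and 470.4 (XpO), and 435 and 486 (XX_InX). The XX groups were apart, while XpO 15 lay among the XmO arrays. In the comparison of crosses its log2 fold change was 0.60 (SE 0.13, limma adjusted p = 0.104) and in XX females 0.88 (SE 0.18, limma adjusted p = 0.123). The other Sf3b1 probe set, 97808_at, read 1809, 2011 and 1794 (XmO), 2133, 1906 and 1771 (XX_Paf), 1570.1 and 1290.0 (XpO), and 1219 and 1469.7 (XX_InX). All arrays of the Paf cross were above those of the In(X) cross (log2 fold change 0.46, SE 0.10, adjusted p = 0.116 by limma).

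Other subunits of the same complexes did not all share that direction. Sf3a2, a subunit of SF3a, read 2680.2, 3537 and 2699.6 (XmO), 2699, 3272 and 3152 (XX_Paf), 3736 and 4032 (XpO), and 3859 and 4016 (XX_InX) on probe set 92196_f_at, so that the Paf cross was lower on every array (log2 fold change -0.39, SE 0.10, adjusted p = 0.161 by limma). Its probe set 92197_r_at had overlapping groups (log2 fold change -0.18). Sf3b5, a small SF3b subunit, was also lower in the Paf cross on every array, at 1116 ± 67.1 in XmO and 1055 ± 109 in XX_Paf against 1272 ± 6.72 in XpO and 1272 ± 58.9 in XX_InX (n = 3, 3, 2 and 2; -0.23, limma adjusted p = 0.332). Sf3b2 had an estimate of 0.27, Sf3b3 of 0.21, Sf3a1 of 0.01, Sf3a3 of -0.15 and Sf3b6 of -0.04, none of them called.

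The hnRNP proteins package nascent RNA. Hnrnpu, which binds both RNA and DNA and is tied to chromatin, read 808, 715 and 702 (XmO), 666, 827 and 853 (XX_Paf), 640.4 and 401 (XpO), and 516 and 428 (XX_InX) on probe set 160316_at. The Paf cross was above the In(X) cross on every array, narrowly so for XX_Paf 1 and XpO 15 (log2 fold change 0.64, SE 0.14, adjusted p = 0.132 by limma). Hnrnpc, known for binding uridine tracts, had means of 344 ± 16.2 in XX_Paf and 204 ± 4.88 in XX_InX (n = 3 and 2), a log2 fold change of 0.75 (limma adjusted p = 0.235), and between XmO and XpO the estimate was -0.24. Hnrnph1 was at 0.40 in the XX comparison and 0.06 in the XO comparison, and Hnrnpr, which binds RNA in motor axons, at 0.65 and 0.13. Among the SR family Srsf10, a regulator of splicing under heat shock, read 417, 460.5 and 576 (XmO), 559.6, 533 and 496 (XX_Paf), 337 and 377 (XpO), and 369 and 346 (XX_InX) on 98048_at, higher in the Paf cross on every array (log2 fold change 0.50, SE 0.12, adjusted p = 0.158 by limma), and had 0.18 on 102046_at.

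**Figure D3:**
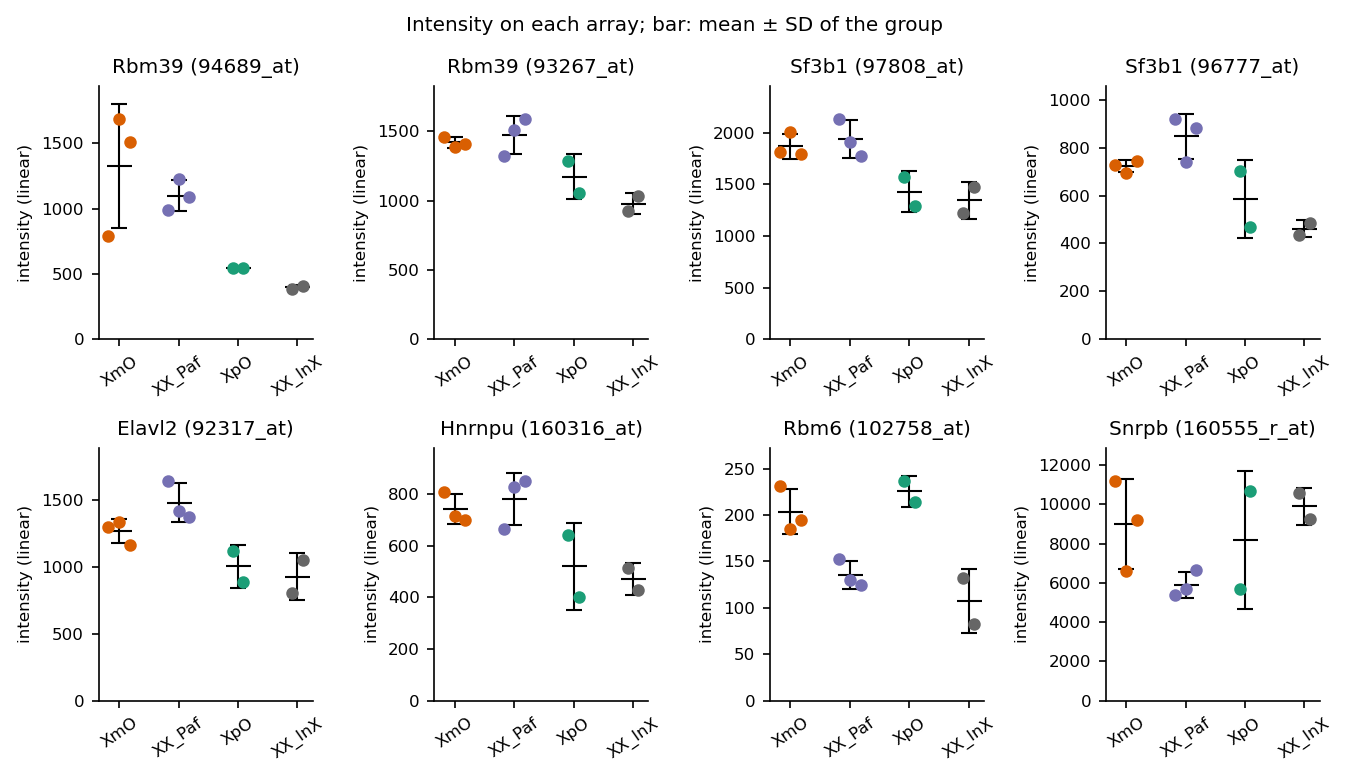
Intensity (linear axis from 0) of 8 member probe sets on each of the 10 arrays (points), by group on the horizontal axis, with the group mean and SD as bars. The Rbm39 values of probe set 94689_at lie at 792 or above in the Paf cross and at 544 or below in the In(X) cross.

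The families best known from neurons showed the following. Elavl2 (HuB), a neuronal RNA-binding protein of the Hu family, read 1296, 1332 and 1162 (XmO), 1642, 1412 and 1373 (XX_Paf), 1116 and 887 (XpO), and 803 and 1048 (XX_InX). Every array of the Paf cross was above every array of the In(X) cross, but no call was made (log2 fold change 0.51, SE 0.11, adjusted p = 0.118 by limma). Elavl1 (HuR), the widely expressed member, had the opposite sign: 518 ± 16.5 (XmO), 609 ± 56.7 (XX_Paf), 637 ± 4.45 (XpO) and 685 ± 56.4 (XX_InX) (n = 3, 3, 2 and 2; -0.24, limma adjusted p = 0.368). Elavl3 (HuC) stayed within 1583 to 2041 on all arrays (-0.03), and Elavl4 (HuD) was at -0.14, neither called.

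Celf2, a regulator of alternative splicing in brain and muscle, read 948, 655 and 633 (XmO), 980.0, 875 and 904 (XX_Paf), 913 and 805 (XpO), and 655 and 569 (XX_InX) on 93892_at. XX_Paf was above XX_InX without overlap (0.59, limma adjusted p = 0.202), while the XmO and XpO arrays overlapped (-0.23). Its other probe set, 97255_at, gave 0.33 and 0.08. Celf4, which is enriched in excitatory neurons, gave 0.37 and -0.05, and Celf1 (93630_at) 0.44 and -0.21. Ptbp2 (nPTB) read 2574, 1473 and 1752 (XmO), 2073, 2123 and 1752 (XX_Paf), 2088 and 1167 (XpO), and 1385 and 1489 (XX_InX) on 94088_at; XX_Paf was above XX_InX (0.46), and XmO and XpO overlapped (0.27). Ptbp3, described in blood cells, gave 0.51 and 0.21. None of these was called.

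The other comparisons asked whether losing an X chromosome changed the members. Over both crosses, XO against XX gave 42 of 81 higher estimates and 39 lower ones, with 50.1% higher among all probe sets. The median was 0.0019 (0.00042 over all probe sets) and the range -0.47 to 0.84. No member was called by limma, where 0.0115% of all probe sets were, and 2 were higher and 1 lower at an unadjusted p under 0.05 (1.25% and 1.35% of all probe sets). In both crosses the XO and XX arrays were apart for 1 member that was higher in XO (0.357% of all probe sets) and for 2 that were lower (0.495%).

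The higher one was Rbm6, an RBM protein known in humans from a chromosome region often lost in lung cancer. It read 231, 185 and 195 (XmO), 153, 129.7 and 124 (XX_Paf), 237 and 214 (XpO), and 132 and 83.0 (XX_InX). XO arrays were above the XX arrays of their cross each time, by 0.58 and 1.10 in the Paf and In(X) crosses (log2 fold change 0.84, SE 0.19, adjusted p = 0.952 by limma over both); on XX_InX 19 it did not reach the background of that array. The lower ones were Rbm25 and Elavl1. Rbm25, a splicing regulator that binds the U1 snRNP, read 232, 319 and 211 (XmO), 416, 340.5 and 359 (XX_Paf), 247 and 205 (XpO), and 249.7 and 277 (XX_InX) (log2 fold change -0.40, SE 0.15, adjusted p = 0.9995 by limma). Elavl1 had -0.17 (SE 0.10). Srsf2, which also acts in transcription, was higher in XO by 0.21 on 94017_s_at (limma adjusted p = 0.9995), with groups that overlapped in the Paf cross. Ptbp2 160374_r_at was lower by estimate, at -0.47, while the brighter Ptbp2 probe set, 94088_at, had 0.02.

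Within the Paf cross the estimates leaned down in XmO: 60 of 81 were lower than in XX_Paf and 21 higher, against 50.5% higher among all probe sets, and the median was -0.10 (0.0021 over all). No member was called by limma (0.023% of all probe sets were), and 2 were higher and 4 lower at an unadjusted p under 0.05 (2.73% and 2.81%). For 13 members XmO was lower on every array (6.97% of all probe sets) and for 1 higher (6.96%). The smallest p-values were those of Rbm25 (-0.57), Hnrnpc (-0.65), Snrpb 160555_r_at (0.58) and Elavl4 (-0.49), each with a limma adjusted p of 0.877. All 4 CELF and all 3 PTB estimates were lower, as were 12 of 15 SR, 16 of 21 hnRNP and 9 of 10 SF3 estimates.

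Within the In(X) cross they leaned the other way. Both comparisons use the XX_Paf or XX_InX arrays that were set against each other above, so their leans are not independent of that comparison. In XpO 53 of 81 estimates were higher than in XX_InX and 28 lower, against 47.9% higher among all probe sets, with a median of 0.09 (-0.01 over all). No member was called by limma (0.0115% of all probe sets were), and 5 were higher and 0 lower at an unadjusted p under 0.05 (1.83% and 1.55%). XpO was higher on both arrays for 16 members (11.3% of all probe sets) and lower for 8 (12.1%). After Rbm6 the smallest p-values were those of Hnrnpa2b1 93118_at (0.47), Celf2 93892_at (0.49) and both Srsf2 probe sets (0.51 and 0.30), each with a limma adjusted p of 0.9998. The brighter probe sets of Hnrnpa2b1 (93117_at) and Celf2 (97255_at) had 0.12 and 0.10. The XmO against XX_Paf and XpO against XX_InX values share no array: 37 of 81 members (45.7%) had the same sign in both, against 42.3% of all probe sets.

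The difference between these effects (that in the Paf cross less that in the In(X) cross), tested directly, passed for no member by limma (0.023% of all probe sets passed). For each probe set the difference equals the value of XmO against XpO less that of XX_Paf against XX_InX, so it is not independent of them. 21 of 81 estimates were higher (51.9% of all probe sets). 1 was higher and 5 were lower at an unadjusted p under 0.05 (2.77% and 3.14% of all probe sets), with a median of -0.18 (0.01 over all). The member with the highest estimate was Snrpb, which encodes the Sm proteins B and B′. On 160555_r_at it read 11209, 6613 and 9188 (XmO), 5355, 5687 and 6635 (XX_Paf), 5690.0 and 10657 (XpO), and 10567 and 9231 (XX_InX). XX_Paf lay below XX_InX on every array, and the XmO and XpO arrays ranged widely (0.93, SE 0.34, limma adjusted p = 0.832 for the difference, which was 0.47 without XpO 15 and 1.38 without XpO 18). Celf2 93892_at had -0.82 (SE 0.25), Hnrnpa2b1 93118_at -0.77 (SE 0.24) and Srsf2 95791_s_at -0.75 (SE 0.27). The brighter probe sets of these genes had smaller differences, at -0.25 (Celf2 97255_at), -0.36 (Hnrnpa2b1 93117_at) and -0.18 (Srsf2 94017_s_at). Snrpc, a protein of the U1 snRNP, had 0.29, with a mean of 1138 ± 60.0 in XX_Paf (n = 3).

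The members on the X chromosome are those that XO animals carry in 1 copy: Hnrnph2, a close relative of Hnrnph1, and Rbmx, an hnRNP-like protein, with 2 probe sets. This list covers members only. Genes of these families read only by probe sets with several symbols, such as Rbm3 and Rbm10, were left out. Such genes could include others on the X chromosome, and their change in XO animals was not tested. Hnrnph2 read 309, 342 and 399 (XmO), 508, 420.0 and 418 (XX_Paf), 418 and 259 (XpO), and 277 and 279.5 (XX_InX). Its XmO arrays were below those of XX_Paf without overlap (-0.36), but the XpO arrays were on both sides of XX_InX, with 418 on XpO 15 and 259 on XpO 18 (0.24), and over both crosses the estimate was -0.06 (SE 0.15, limma adjusted p = 0.9995). Rbmx 97848_at read 850.4, 783 and 771 (XmO), 849.8, 810.3 and 768 (XX_Paf), 845 and 494 (XpO), and 603 and 546 (XX_InX) (0.08, SE 0.14), and 97847_at had -0.15 (SE 0.14). None was called in any comparison.

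The level of the members as a set varied among arrays of the same group. Set against the mean of the 4 group means of each probe set, the median deviation of the 81 members was highest in XX_Paf, at 0.17, 0.12 and 0.12, and was 0.06, 0.08 and -0.03 in XmO. In the In(X) cross it was 0.10 on XpO 15 and -0.12 on XpO 18, and -0.17 on XX_InX 1 and -0.02 on XX_InX 19, while over all tested probe sets it stayed between -0.01 and 0.03 on the 10 arrays. The lowest medians were therefore those of XpO 18 and XX_InX 1, the arrays farthest along the first principal component. The family medians for hnRNP proteins ran from -0.19 on XX_InX 1 to 0.21 on XX_Paf 1, and those for SR proteins from -0.20 to 0.17 on the same arrays. XX_Paf 1, at the other end of that component, had the highest median. Without XX_InX 1, 17 members were higher in XX_Paf at an unadjusted p under 0.05 (4.49% of all probe sets), without XX_Paf 1 also 17 (5.09%), and without XpO 18 and XX_InX 1 together 19 were (5.74%). Without XpO 18 the members' median was -0.06 in XmO against XpO and 0.22 in XpO against XX_InX.

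**Figure D4:**
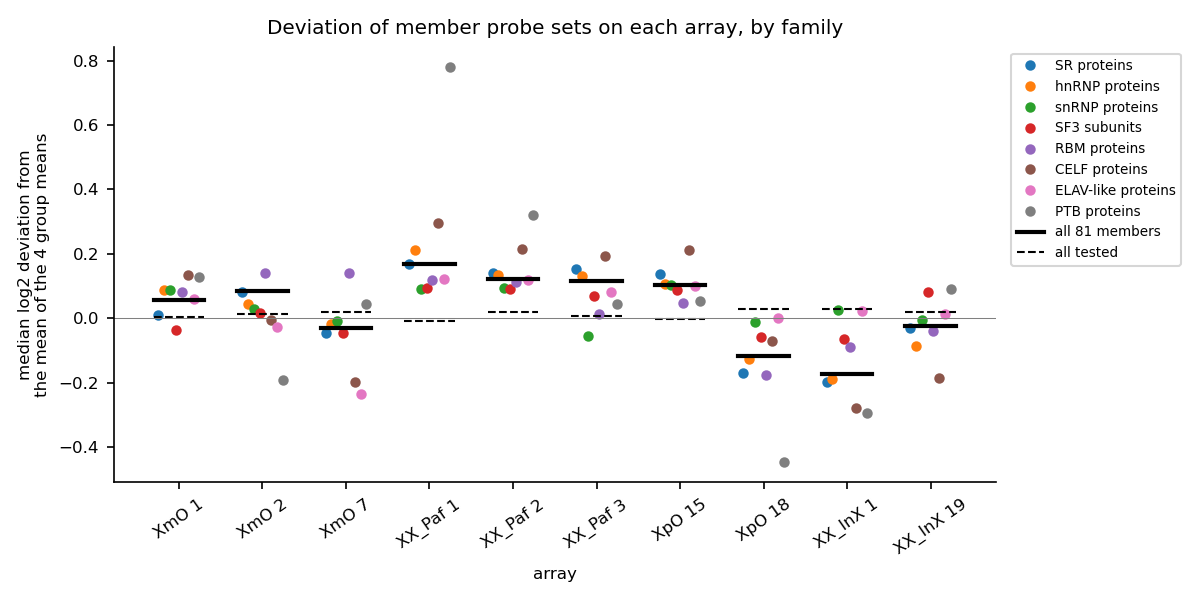
Median log2 deviation from the mean of the 4 group means on each array (vertical axis), for each family (points), for all 81 members (solid bar) and for all tested probe sets (dashed). The members lie between -0.17 on XX_InX 1 and 0.17 on XX_Paf 1, and all probe sets between -0.01 and 0.03.

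Signs of RNA quality and markers of other cells are given beside this. The ratio of the 3′ to the 5′ probe set of the control gene Gapdh was 0.701 to 0.817 on the 10 arrays, highest on XX_InX 1, and that of Actb 1.02 to 1.16. The Actb ratio was 1.05, 1.02 and 1.07 in XX_Paf and 1.11 and 1.14 in XX_InX, without overlap. It was 1.14, 1.06 and 1.16 in XmO and 1.075 and 1.095 in XpO, which overlapped. Both globin probe sets were higher in the Paf cross: Hba-a1 (alpha globin) had means of 10396 and 10866 in XmO and XX_Paf against 5327 and 3674 in XpO and XX_InX, and Hbb-b2 (beta globin) 2779 and 2973 against 1084 and 1162. They made up most of the erythroid list, of which the 6 probe sets of the 5 measured erythroid genes summed to 11336 to 17344 in XmO and 11726 to 16987 in XX_Paf, against 6003 to 7502 in XpO and 4059 to 6209.9 in XX_InX. Of its 4 tested probe sets the 2 globin ones were called by limma between the crosses, and the others, Slc4a1 (means of 136, 82.5, 127 and 111 in XmO, XX_Paf, XpO and XX_InX) and Alas2 (197, 162, 166 and 150), were not. The 3 probe sets of the 2 measured choroid plexus genes, Ttr and Folr1, summed to 2459 to 3344 in XX_Paf and 2021 to 2252 in XX_InX, which did not overlap, and to 1393 to 2663 in XmO and 1019 to 1938 in XpO; both tested ones had higher estimates in XX_Paf (median 0.38) and neither was called. Skeletal muscle markers summed to 901 to 3791 in XX_Paf and at most 1172 elsewhere, and Acta1 (skeletal actin) read 2448 on XX_Paf 2 and at most 574 on the other arrays. Microglia markers summed to 2810 to 2998 in XX_Paf and 2980 to 3563 in XX_InX, and pituitary markers to 1436 to 1833 and 1756 to 2110. The part of these cells, or of RNA quality, in the difference of the members was not tested. The 15 probe sets of 12 proliferation genes summed to 4608 to 4818 in XmO, 4995 to 5153 in XX_Paf, 5318 to 5749 in XpO and 4955 to 5123 in XX_InX. Neuronal markers had 8 of 18 higher estimates in XX_Paf against XX_InX, with a median of -0.07, and those of radial glia and astrocytes had 4 of 8, with a median of 0.01.

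Several genes were read by more than 1 probe set, and 17 genes gave 18 pairs of tested probe sets. In XX_Paf against XX_InX 14 of 18 pairs (77.8%) had the same sign, against 60.9% of all 1358 pairs, and in XmO against XpO 13 of 18 (72.2%, against 54.8%). In XO against XX it was 9 of 18 (50%, against 53.0%). In XX_Paf against XX_InX 65 of 81 members had higher estimates, which by itself raises the share of member pairs with the same sign. No member pair was called as moving unequally by limma in the 6 comparisons, where 0% to 0.147% of all pairs were, nor between the Paf and the In(X) cross (0.0736%). At an unadjusted p under 0.05, 5 of 18 member pairs and 146 of all 1358 pairs differed in XX_Paf against XX_InX. Between the Paf and the In(X) cross 3 and 122 did, and in XmO against XpO 1 and 61. In XO against XX, XmO against XX_Paf, XpO against XX_InX and the difference between crosses 0 member pairs did, beside 49, 77, 50 and 67 of all pairs.

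Some of these pairs had estimates of opposite sign or of unequal size in XX_Paf against XX_InX. Hnrnpu had a log2 fold change of 0.73 on 160316_at and of -0.29 on 93761_at, a dim probe set that was above the brightest Y-linked one on 6 of 10 arrays (difference -1.01, SE 0.39, adjusted p = 0.418 by limma). On 93761_at the value was -0.04 without XX_Paf 2 and -0.53 without XX_Paf 1. The X-linked Rbmx had 0.50 on 97848_at and -0.25 on 97847_at (difference -0.75, SE 0.27, adjusted p = 0.417 by limma). Snrpb2, a U2 snRNP protein, had -0.60 on 162026_r_at and 0.34 on 92839_f_at. These dim probe sets were above the brightest Y-linked one on 9 and 8 of 10 arrays, and 162026_r_at read 118.6, 218.6 and 193.5 within XX_Paf. Sf3a2 had -0.38 on 92196_f_at and 0.08 on 92197_r_at. With the same sign on both, Srsf2 had 0.14 on 94017_s_at and 0.67 on 95791_s_at. The 2 probe sets of Sf3b1 were at 0.53 and 0.88.

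**Figure D5:**
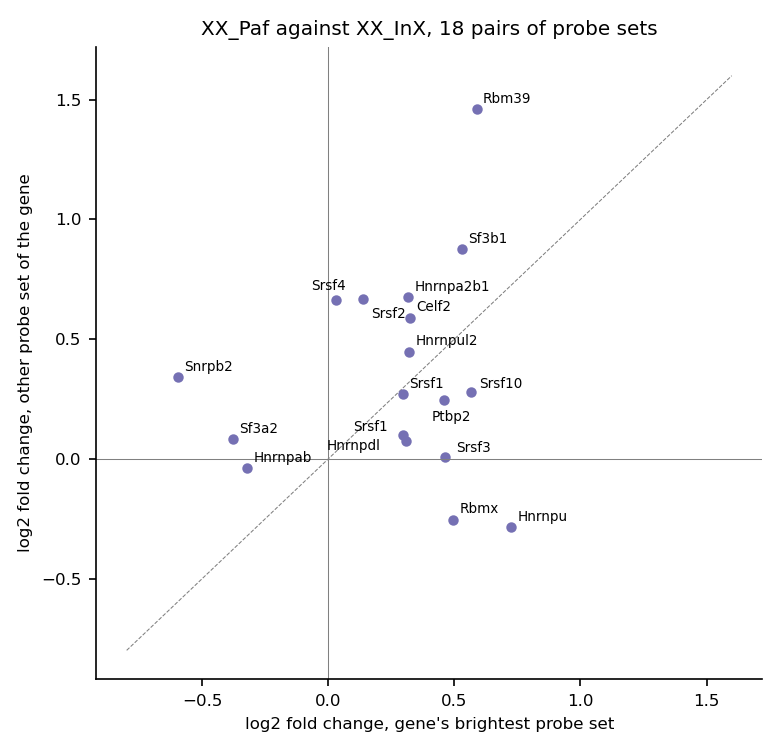
The 18 pairs of probe sets of the same gene by their log2 fold change in XX_Paf against XX_InX, with the probe set of higher mean on the horizontal axis and the other on the vertical axis; the dashed line marks equal values. 14 of 18 pairs have the same sign, and Hnrnpu (0.73 and -0.29) and Rbmx (0.50 and -0.25) are among those that do not.

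The rest of the splicing machinery was followed through a list of 130 other splicing and RNA-binding genes, of which 92 were measured by 121 probe sets and 111 probe sets were tested. In XX_Paf against XX_InX 78 were higher and 33 lower (47.3% of all probe sets were higher), with a median of 0.11 beside 0.27 for the members. Of these 111, 17 were higher (7.4% of all probe sets) and 0 lower (6.39%) at an unadjusted p under 0.05, and 0 were called by limma (0.0805%). The smallest p-values were those of the RNA helicase genes Ddx17 (1 of its probe sets, 0.89, SE 0.20) and Dhx9 (0.63, SE 0.14) and of Ilf2 (0.78, SE 0.21), a partner of double-stranded RNA-binding proteins. Ddx5, the close relative of Ddx17, was at 4276 and 4279 in XmO and XX_Paf and at 3272 and 3485 in XpO and XX_InX. In XO against XX 45 were higher and 66 lower (50.1% of all probe sets were higher). Only 1 was higher and 2 were lower at an unadjusted p under 0.05 (1.25% and 1.35% of all probe sets), and 0 were called by limma (0.0115%). The highest estimates by p-value there were those of Acin1 (0.26), Prpf6 (0.18) and Tia1 (0.18), and the lowest those of Matr3 (-0.48), Prpf31 (-0.26) and Rbms2 (-0.32).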

How the data were processed

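The authors deposited a table of linear intensity values, made by an algorithm that is not given in the sources used here. The mean of each array, trimmed by 2% at each end, was 500.3, so the arrays were already scaled and were used as deposited. A floor was set at the 10th percentile (15.1), log2 was taken, and probe sets with a mean log2 value at or over the 30th percentile were tested (8695). Of 12488 probe sets 66 were controls, 10833 had 1 gene symbol, 396 several and 1193 none. 10 probe sets with several symbols name a gene of these families and were left out.

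The linear model had a mean for each group (limma 3.58.1 with R 4.3.3; lmFit, then eBayes with trend), and tests were two-sided, with Benjamini-Hochberg adjustment within each of 6 comparisons. The comparison of the Paf cross (6 arrays) with the In(X) cross (4 arrays) was added after values were seen. Pairs of probe sets of a gene were tested on their log2 difference, over 1358 pairs. Named members come from the 4 of smallest p in each direction and comparison and from the 3 brightest genes of each family. They also come from the X-linked, ELAV-like, CELF and PTB members, and from pairs that differed by over 1. Not all of these have values given here (Rbm14, Rbm18, Srsf6, Rbm42 and Rbmxl1, for example, do not), and other members were chosen after their values were seen. The members and lists were chosen with earlier results of these data known. Gene positions and promoters come from RefSeq, GRCm38.p6. The steps were tested on simulated data. Filter, floor, trend, array weights, normalization and single arrays were varied. The number of arrays limits the precision.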

Additional observations from a re-analysis of the deposited data

Results flagged for a closer look

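In Hnrnpc, XmO lay below XX_Paf on every array and XpO above XX_InX on every array, so the effect of having a single X had opposite signs in the 2 crosses. The difference between these estimates was -0.99 on the log2 scale on 160199_at (SE 0.36), and tested directly it did not pass (limma adjusted p = 0.832). The arrays read 234, 280.0 and 161 (XmO), 345, 360.0 and 328 (XX_Paf), 314 and 214 (XpO), and 208 and 201 (XX_InX).

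Hnrnpa2b1, which encodes proteins that bind RNA for packaging and transport, showed the same pattern on 93118_at. The difference was -0.77 (SE 0.24), which did not pass either (limma adjusted p = 0.832). The arrays read 580.1, 466 and 515 (XmO), 714, 612 and 587 (XX_Paf), 614 and 496 (XpO), and 428 and 369.8 (XX_InX). On its other probe set, 93117_at, the difference was -0.36.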

How the results depend on the processing

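The comparison of the 6 with the 4 arrays, the counts at an unadjusted p and the setting without XpO 18 and XX_InX 1 were chosen after the data were seen. In that comparison 1 member, Rbm39, was called by limma; 0 were with no filter on low intensities (adjusted p = 0.0955), with no intensity trend (adjusted p = 0.134) and with XpO 18 and XX_InX 1 both left out (adjusted p = 0.122), and 0 to 9 when single arrays were left out (0 without XpO 18, 9 without XpO 15). Over all its alternatives the adjusted p of Rbm39 by limma ran from 4.71e-05 to 0.134. Members higher at an unadjusted p under 0.05 numbered 22 there (6.59% of all probe sets), 9 without both arrays (4.21%) and 10 (4.21%, without XpO 18) to 30 (10.7%, without XpO 15) without single ones; lower ones numbered 3, and 2 to 5. In XX_Paf against XX_InX 0 members were called, but 1 (Rbm39) with array weights and 1 (Rbm39) with the filter at the 50th percentile, and 0 to 1 without single arrays, as in XmO against XpO. Lower members at an unadjusted p numbered 2 in XX_Paf against XX_InX, 4 with no filter, 1 without both arrays and 1 to 2 without single ones. The median log2 fold change of the members in XmO against XpO was 0.05, -0.0556 without both arrays and -0.0556 to 0.15 without single ones. In XpO against XX_InX it ranged from -0.0053 to 0.22 and for the difference between crosses from -0.29 to -0.0936, the highest and the lowest without XpO 18. In XpO against XX_InX, Snrpb 160555_r_at ranged from -0.80 to 0.11, reversed without XpO 15. Pairs of probe sets called in the comparison of crosses numbered 0 to 1, the 1 without XmO 1. Counts over all probe sets moved by over 1.5 times as well. The 9 called in the comparison of crosses became 22 with the filter at the 50th percentile, 1 with no intensity trend and 1 to 105 without single arrays. The 7 in XX_Paf against XX_InX became 11 with array weights, 17 with no filter, 2 with no intensity trend, 21 without XpO 18 and XX_InX 1, and 2 to 17 without single arrays. In XO against XX the count was 1, against 4 with no filter, 3 without both arrays and 1 to 3 without single ones. In XmO against XX_Paf it was 2, against 4 with no filter and 2 to 4 without single arrays. In XpO against XX_InX it was 1, against 6 with no filter, 3 without both arrays and 1 to 4 without single ones, and in XmO against XpO 1, against 3, 0 and 1 to 7. For the difference between crosses it was 2, against 4 with no filter, 1 with the filter at the 50th percentile or without both arrays, 0 with array weights or no intensity trend, and 0 to 4 without single arrays. Leaving out 1 array of the In(X) cross leaves a single array in its group, which is then assumed to vary like the others. Array numbers 1 and 2 occur in both XmO and XX_Paf, and the deviations of such arrays were not correlated (r = -0.0123 and -0.0415). The labels do not say what the number means, and these values cannot show whether such arrays shared a litter or batch. With a replicate block 0 members and 1 probe set of all were called in XmO against XX_Paf (2 without it), and the median was -0.07. The causes were not tested.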
